A study of Mus musculus with 6 samples.

Results

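The UDP-glucuronosyltransferase (Ugt) and carboxylesterase (Ces) genes were taken from the count table by symbol: all rows of the Ugt1a, Ugt2a, Ugt2b and Ugt3a families and of the Ces1 to Ces5 families. There were 39 such rows, 20 Ugt and 19 Ces, among 24786 gene symbols. The libraries came from wild-type mouse intestinal organoids, which are epithelial structures grown from gut stem cells. The organoids were dissociated to single cells for 10 min and kept for 16 h with 100 µM tyramine (3 libraries), a product of tyrosine breakdown by gut bacteria, or as controls (3 libraries). The control titles name DMSO whereas the design text names control medium, so the 2 groups may have differed in solvent. The sources used here give no strain, age or gut segment for the organoids. No label ties the replicates to separate mice or cultures. The p-values below therefore reflect only how far these libraries scatter, which may be technical.

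UDP-glucuronosyltransferases sit in the membrane of the endoplasmic reticulum and join glucuronic acid, taken from UDP-glucuronic acid, to bilirubin, hormones, phenols and drugs, which can then be exported. Carboxylesterases work in the lumen of the same compartment, where they cut ester and amide bonds of drugs and lipids. In the intestine both enzyme families are known from absorptive enterocytes, where they act on compounds taken up with food before these reach the blood.

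Of the 39 rows, 26 (14 Ugt and 12 Ces) had enough counts to be tested, 13 did not, and 5 of those 13 were at 0 in every library. With tyramine 15 of the 26 fell, 3 rose and 8 missed the threshold (quasi-likelihood test of edgeR, with an adjusted p under 0.05 over all tested genes). Ces1a and Ces1b, which rose, had enough counts to be tested only through the tyramine libraries. Ugt2a3 and Ces2b, which fell, had enough only through the controls. The calls of these genes are description only. Over all 12139 tested genes, 25.8% were called, 13.3% falling and 12.5% rising. The count of 15 holds 8 Ugt1a rows that largely count the same reads. With 1 row for Ugt1a, and 1 for the identical pair Ugt2a1 and Ugt2a2, 8 of 19 rows fell and 3 rose. Those 19 rows still hold Ces2c and Ces2d-ps apart, though this pair may also share reads. The median log2 fold change over the 26 was -0.98, against 0.0041 over all tested genes. The groups did not overlap in 20 of the 26 members, against 44.5% of all tested genes. With the merged rows they did not overlap in 13 of 19, and the median was -0.77.

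**Figure D1:**
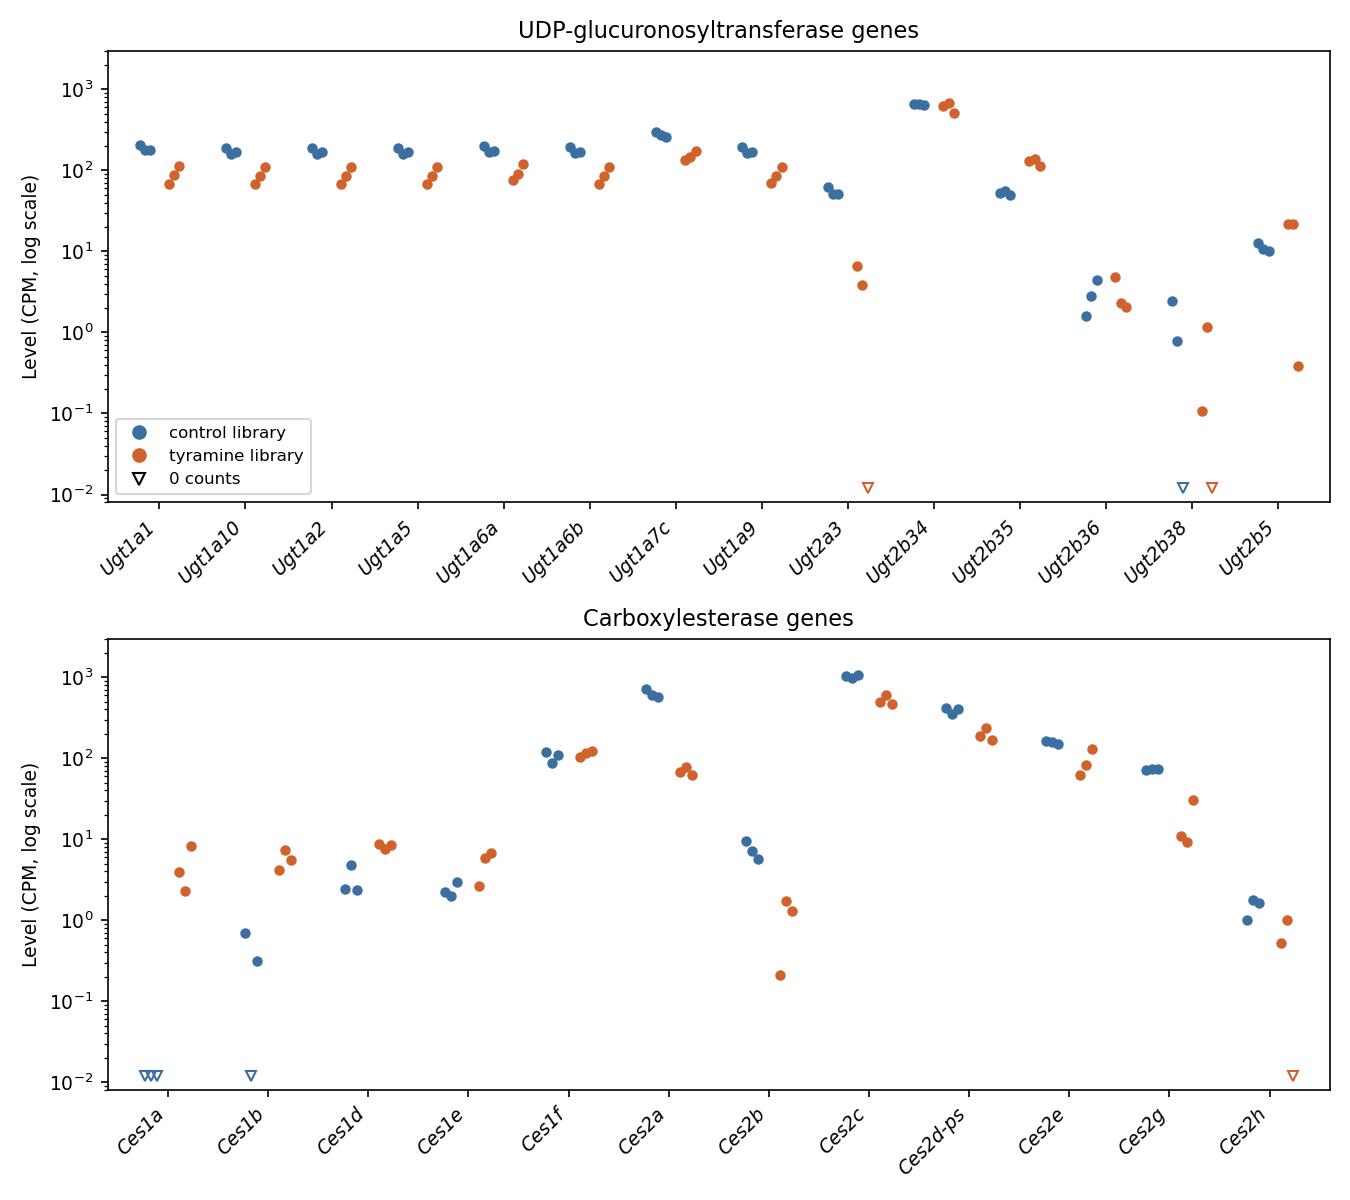
Level of each tested member in each library, in counts per 1000000 (CPM, log axis), with control libraries in blue, tyramine libraries in orange, replicates 1 to 3 from left to right, and open triangles for 0 counts. The Ugt1a rows and Ces2a, Ces2c, Ces2d-ps and Ces2g lie lower with tyramine in every library, whereas Ugt2b34 and Ces1f overlap between the groups and Ugt2b35 lies higher.

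Levels below are CPM, or counts per 1000000 counts of a library after TMM scaling, and means carry the SD over the 3 libraries of a group. Library totals ran from 28316372 to 35035955 counts. The organoids carried the keratins and adhesion genes of epithelium, and the 9 intestinal epithelium markers summed to 15517 to 16983 CPM in controls and 14403 to 15864 with tyramine. Within that sum 5 of the 9 fell and 2, Cdh1 and Krt18, rose (median log2 fold change -0.67). Markers of liver cells, in which these enzymes are also abundant, summed to 9.90 to 14.7 CPM in controls, most of it Ttr at 10.0 CPM, and 0.278 to 1.80 with tyramine; Fgb was at 0 in every library. Immune markers summed to at most 4.56 CPM, endothelial markers to at most 2.47 and mesenchyme markers to at most 10.2. Replicates scattered more with tyramine, with a chi-square over genes, divided by its degrees of freedom, of 53.3 to 99.4 for pairs of tyramine libraries and at most 34.97 for pairs of controls.

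Markers of the absorptive cells in which these enzymes are known were lower in the tyramine libraries as well. Of the 15 enterocyte markers, 14 fell and Krt20 was not past the threshold, where 13.3% of all tested genes fell and 12.5% rose. Their summed level was 23049 to 24479 CPM in controls and 7473 to 8575 with tyramine. Markers of enteroendocrine and goblet cells were also lower. Enteroendocrine markers summed to 1070 to 1074 and then 318 to 496 CPM, with 4 of 6 tested members falling. Goblet cell markers summed to 121 to 148 and then 58.8 to 71.7 CPM, with 4 of 7 falling. Paneth cell markers overlapped between the groups, at 38.4 to 76.4 and then 19.1 to 44.1 CPM. Of their 5 tested members 1 fell. Tuft cell markers summed to 1.37 to 2.67 and then 2.54 to 6.02 CPM, with 0 of 2 tested members falling or rising. Stem cell markers summed to 86.7 to 111 and then 76.8 to 82.8 CPM, with 1 of 3 tested members falling. Proliferation markers summed to 2316 to 2825 and then 155 to 180 CPM, with 7 of 8 falling. Squamous or basal markers summed to 1.44 to 3.24 and then 517 to 954 CPM, with 3 of 4 tested members rising. At such control levels a member could pass the filter on low counts through the tyramine libraries alone, so these rises are description only. The part of these shifts in the Ugt and Ces values was not tested, and in bulk libraries fewer cells of a type and less RNA per cell cannot be told apart.

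The Ugt1a genes lie in 1 cluster on chromosome 1 (GRCm38, 88055388 to 88220002, plus strand). Each has its own first exon, which encodes the part of the enzyme that binds the substrate, and all splice to the same further exons, which encode the part that binds UDP-glucuronic acid. The joins below, from GENCODE M21 transcripts, show why a read past the first exon cannot be given to a gene. The last 30 bases of each first exon are in lower case, and the first 30 bases of the shared second exon (chr1:88215044-88215175, plus strand) are in capitals.
Ugt1a1: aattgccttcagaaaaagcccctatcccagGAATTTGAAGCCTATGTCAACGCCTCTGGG
Ugt1a6a: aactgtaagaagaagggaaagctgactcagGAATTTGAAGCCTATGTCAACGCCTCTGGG
Ugt1a7c: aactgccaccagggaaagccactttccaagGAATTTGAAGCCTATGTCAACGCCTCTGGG
Ugt1a10: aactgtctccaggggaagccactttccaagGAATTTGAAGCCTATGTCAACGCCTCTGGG
The capitals are the same in all 4 joins, and GENCODE gives 1311 exon bases common to every Ugt1a gene. Ugt1a1 has 913 exon bases of its own.

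The deposited Ugt1a rows carried this overlap. Ugt1a5 and Ugt1a10 were identical, with 5822, 5894 and 4761 counts in controls 1 to 3 and 1929, 2722 and 3140 in tyramine libraries 1 to 3. Ugt1a2 differed from them by 1 count in each of 2 control libraries and by 0 elsewhere. All 8 Ugt1a rows fell, with log2 fold changes from -0.87 for Ugt1a7c to -1.06 for Ugt1a1, and no row overlapped between the groups. The 8 rows are not 8 independent results.

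Summed over the 8 rows, Ugt1a fell 1.95-fold. The sums were 50588, 52155 and 41227 counts in controls against 17621, 23929 and 27383 with tyramine. The log2 fold change was -0.97 (SE 0.143, edgeR adjusted p = 0.00095). This sum holds shared reads up to 8 times. With the lowest row of each library taken as the shared part and counted once, Ugt1a fell from 299.9 ± 23.3 to 162 ± 22.7 CPM (log2 fold change -0.89 ± 0.123 SE, adjusted p = 0.00065 by edgeR).

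What each row held above the lowest row, called its excess here, is taken as reads outside the exons common to all Ugt1a genes. It need not belong to 1 gene. Of all 50-base words of the Ugt1a7c transcripts, 52.8% also occur in Ugt1a6a, against 29.7% in Ugt1a1. Reads in such stretches could enter more than 1 excess, and so be counted repeatedly in the level above that counts the shared part once. This split was made after the rows were seen. Ugt1a1, the enzyme that conjugates bilirubin, had an excess of 407, 627 and 359 counts in controls against 17, 82 and 110 with tyramine. Every tyramine library lay below every control, and the mean fell 6.16-fold, from 14.4 ± 2.46 to 2.34 ± 1.63 CPM (log2 fold change -2.62 ± 0.624 SE, adjusted p = 0.012 by edgeR). The adjusted p was 0.061 without control replicate 2. Tyramine replicate 1, with 17 counts, was the lowest.

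The excess of Ugt1a7c, a form known for conjugating phenols, was the largest. It numbered 3286, 3981 and 2539 counts in controls against 1868, 1926 and 1829 with tyramine. The level fell 1.61-fold, from 102 ± 11.3 to 63.4 ± 2.69 CPM (log2 fold change -0.69 ± 0.138 SE, adjusted p = 0.0051 by edgeR), and it fell with each library left out in turn. Of the 1915 exon bases that only Ugt1a7c has, 998 lie past the annotated 3′ end of every other Ugt1a gene. Reads of any Ugt1a transcript that ran on could fall there, so this excess is not a clean measure of Ugt1a7c.

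The excess of Ugt1a6a, another phenol-conjugating form, was 258, 324 and 216 counts in controls against 255, 120 and 273 with tyramine. Its groups overlapped, and its log2 fold change of -0.17 was not past the threshold (edgeR adjusted p = 0.85). Ugt1a6b, the neighbouring copy, had an excess of 36, 61 and 23 counts in controls against 10, 25 and 51 with tyramine (log2 fold change -0.33, edgeR adjusted p = 0.87). Ugt1a9 had 24, 9 and 2 against 39, 0 and 0. Ugt1a1 took 10.1% to 12.5% of the summed excess in controls and 0.777% to 4.86% with tyramine, and these ranges did not overlap. Ugt1a7c took 79.6% to 81.9% in controls and 80.8% to 89.5% with tyramine.

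**Figure D2:**
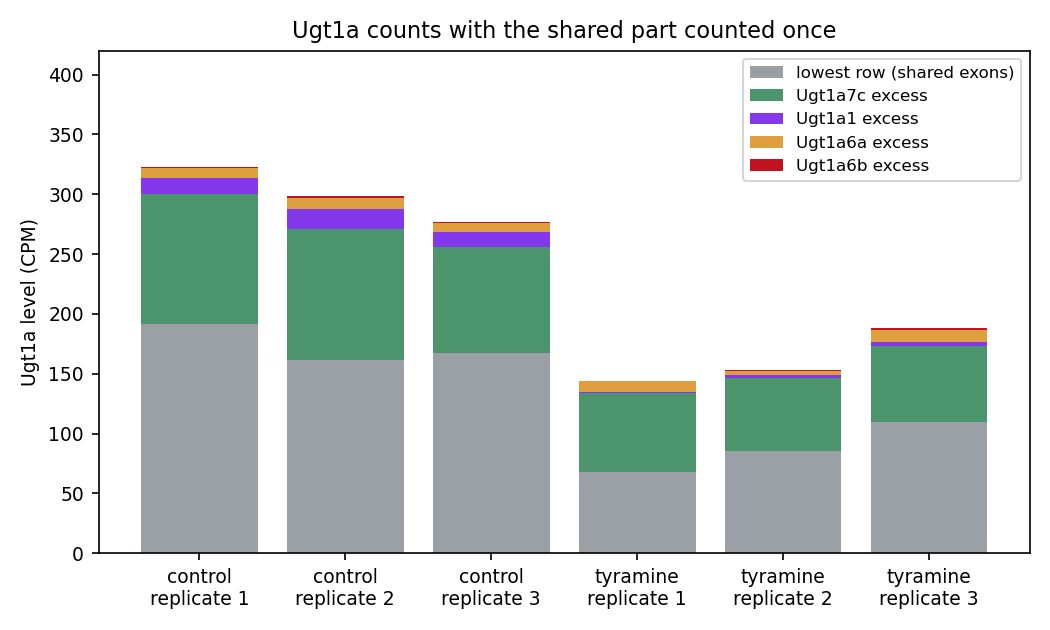
Ugt1a level in each library (CPM), as stacked bars of the lowest row, taken as reads of the shared exons, and of what Ugt1a7c, Ugt1a1, Ugt1a6a and Ugt1a6b held above it. The Ugt1a1 segment is 12.6 to 17.2 CPM in controls and at most 3.83 CPM with tyramine; the excess of Ugt1a2 and Ugt1a9, at most 39 counts, is not drawn.

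The Ugt2 genes, known for conjugating steroids, bile acids and drugs, lie on chromosome 5 and are separate genes, except that Ugt2a1 and Ugt2a2 share exons. Of 10 rows, 6 were tested; Ugt2a3 fell, Ugt2b35 rose and 4 were not past the threshold. The summed Ugt2 level was 774 ± 21.7 CPM in controls and 752 ± 106 with tyramine.

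Ugt2b34 (chromosome 5, 86889767 to 86906937, minus strand) made up most of that sum, 83.3% to 84.6% of Ugt2 counts in controls against 78.7% to 81.8% with tyramine. Its levels were 663, 652 and 636 CPM in controls and 616, 672 and 518 with tyramine. The groups overlapped, and the log2 fold change of -0.11 (SE 0.104) was not past the threshold (edgeR adjusted p = 0.50).

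Ugt2b35 (chromosome 5, 87000860 to 87013275, plus strand) rose 2.44-fold. It stood at 53.4, 55.1 and 49.2 CPM in controls and 132, 139 and 113 with tyramine. Every tyramine library was above every control (log2 fold change 1.29 ± 0.136 SE, adjusted p = 0.00011 by edgeR). Within a library, Ugt2b35 counts per Ugt2b34 count went from 0.0808 ± 0.00361 to 0.213 ± 0.00551.

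Ugt2a3 (chromosome 5, 87324972 to 87337195, minus strand), a form known from intestine and liver, fell 15.7-fold. It had 1892, 1874 and 1470 counts in controls against 188, 123 and 0 with tyramine, or 55.1 ± 6.24 against 3.50 ± 3.33 CPM. The log2 fold change was -3.97 (SE 0.992, edgeR adjusted p = 0.018). All tyramine libraries were far below the controls, and replicate 3 held no read of the gene. Ugt2a3 passed the filter on low counts through the controls, so its call is description only. The fold was 28.5 without tyramine replicate 1, and the call was lost without control replicate 1 (adjusted p = 0.058), with no filter on low counts (0.11) and by DESeq2 (0.062).

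Ugt2b5 (chromosome 5, 87124960 to 87140318, minus strand) split the tyramine libraries. It had 386, 387 and 290 counts in controls against 624, 687 and 11 with tyramine. Replicates 1 and 2 were above every control and replicate 3 was near 0. The log2 fold change was 0.39 (SE 0.957, edgeR adjusted p = 0.82), and 0.97 without tyramine replicate 3 (adjusted p = 0.027). Of all 50-base words of the Ugt2b5 transcript, 34.8% also occur in Ugt2b38 and 15.5% in Ugt2b37, so reads may be split between them.

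The remaining Ugt2 genes were low. Ugt2b36 averaged 2.97 CPM in controls and 3.10 with tyramine (log2 fold change 0.06), and Ugt2b38 averaged 1.08 and 0.423 (-1.33); both overlapped between groups and neither was past the threshold. Ugt2a1 and Ugt2a2 had identical rows of 4, 7 and 10 counts in controls against 0 in all tyramine libraries. They were not tested, and against a floor of 3 counts per library they were at least 2.21-fold lower, a counting limit only, which was 1.59 without control replicate 3. Ugt2b1 had 4 counts in control replicate 3 and 4 in tyramine replicate 1, and Ugt2b37 had 2, 1 and 0 in controls and 0 with tyramine. Ugt3a1 and Ugt3a2, of a family that uses other sugar donors, were at 0 in every library.

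Among the carboxylesterases the Ces2 cluster was the most abundant, and 6 of its 7 tested genes fell. Its genes lie on chromosome 8 (104734003 to 105021178, plus strand) and encode esterases known for cutting esters with a large alcohol part. The summed Ces2 level was 2412, 2161 and 2275 CPM in controls and 824, 1002 and 863 with tyramine, 2.55-fold lower. Of its 8 rows Ces2f was not tested, and Ces2h was not past the threshold.

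Ces2a fell most among the abundant Ces2 genes. It stood at 711, 596 and 572 CPM in controls and 67.0, 77.6 and 62.0 with tyramine, 9.10-fold lower. The groups lay far apart (log2 fold change -3.19 ± 0.131 SE, adjusted p = 2.9e-07 by edgeR). Ces2c, the highest of these genes per length, went from 1032, 971 and 1064 CPM to 493, 596 and 468 (log2 fold change -0.98 ± 0.105 SE, adjusted p = 0.00013 by edgeR). Neither gene overlapped between the groups. Ces2a counts per Ces2c count were 0.688, 0.614 and 0.538 in controls and 0.136, 0.130 and 0.132 with tyramine, so the ratio was lower in every tyramine library.

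Ces2d-ps, annotated as an unprocessed pseudogene beside Ces2c, stood at 422, 353 and 407 CPM in controls and 189, 235 and 170 with tyramine (log2 fold change -0.995 ± 0.134 SE, adjusted p = 0.00054 by edgeR). Its ratio to Ces2c was 0.385 ± 0.0227 in controls and 0.380 ± 0.0158 with tyramine. Of its 50-base words, 45.7% also occur in Ces2c, so the split of reads between the pair is uncertain. The sources used here do not say how reads that match both were counted.

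Ces2g, Ces2e and Ces2b also fell. Ces2g stood at 71.8, 73.4 and 74.1 CPM in controls and 11.1, 9.28 and 30.8 with tyramine, 4.29-fold lower (log2 fold change -2.10 ± 0.403 SE, adjusted p = 0.004 by edgeR), and 7.19-fold without tyramine replicate 3. Ces2e stood at 164, 157 and 149 CPM in controls and 62.8, 81.8 and 131 with tyramine (log2 fold change -0.77 ± 0.228 SE, adjusted p = 0.032 by edgeR). In both genes tyramine replicate 3 was the highest of its group. Ces2e was not past the threshold without any 1 library other than tyramine replicate 3 (adjusted p from 0.078 to 0.11), and without that replicate its adjusted p was 0.00025.

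Ces2b stood at 9.58, 7.24 and 5.65 CPM in controls and 0.212, 1.73 and 1.29 with tyramine, 6.96-fold lower (log2 fold change -2.79 ± 0.810 SE, adjusted p = 0.030 by edgeR). Its call was lost without any 1 control library (adjusted p from 0.077 to 0.14). Ces2b passed the filter on low counts through the controls, so this call is description only. Ces2h averaged 1.46 CPM in controls and 0.512 with tyramine (log2 fold change -1.51, edgeR adjusted p = 0.49). Its ratio of means, 2.86, was 5.53 without tyramine replicate 2 and 1.91 without tyramine replicate 3. Ces2f had 8, 17 and 11 counts against 1, 6 and 0 and was not tested.

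The make-up of the Ces2 counts differed between the groups. Ces2a held 25.2% to 29.5% of Ces2 counts in controls against 7.18% to 8.13% with tyramine. Ces2c held 42.8% to 46.8% and then 54.2% to 59.9%. In tyramine replicate 3 Ces2e held 15.2%, against 7.63% and 8.16% in the other tyramine libraries.

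**Figure D3:**
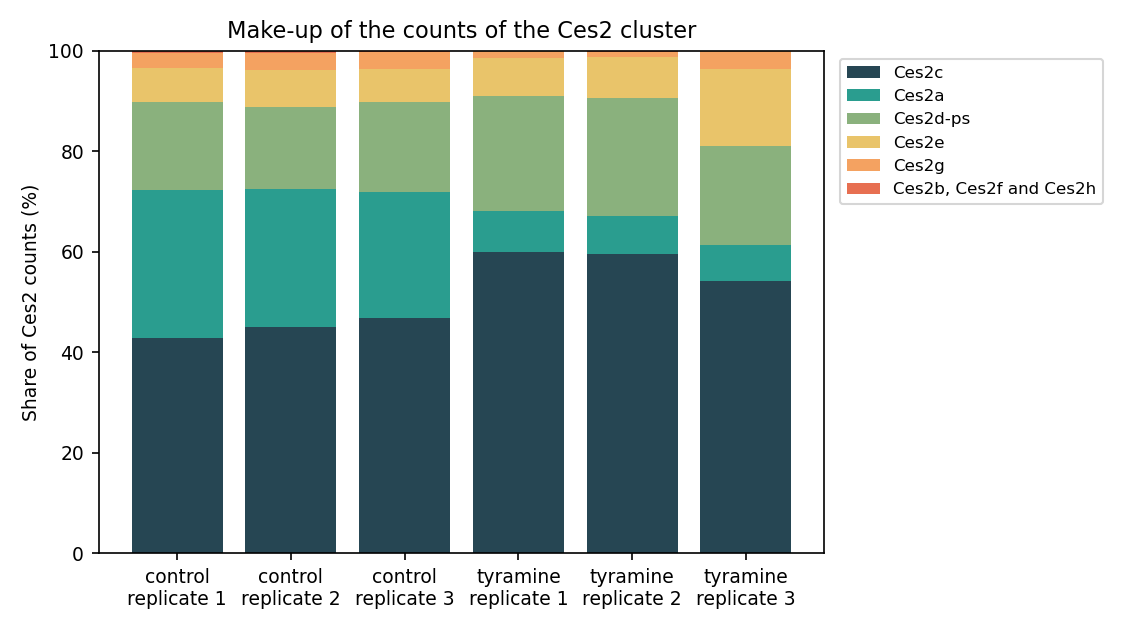
Share of the counts of the Ces2 rows (%) taken by each gene in each library, as stacked bars that sum to 100%. The Ces2a segment is 25.2% to 29.5% in controls and 7.18% to 8.13% with tyramine, and the Ces2e segment is widest in tyramine replicate 3 (15.2%).

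The Ces1 genes, a second cluster on chromosome 8 whose products include lipid hydrolases of liver, intestine and plasma, held no call in the falling direction. Of 7 rows, 5 were tested, 2 rose and 3 were not past the threshold. Ces1f carried 92.1% to 95.7% of Ces1 counts in controls against 80.8% to 82.9% with tyramine. Its levels were 119, 88.0 and 110 CPM in controls and 105, 115 and 123 with tyramine, and the groups overlapped (log2 fold change 0.11 ± 0.143 SE, adjusted p = 0.63 by edgeR).

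Ces1a (chromosome 8, 93020214 to 93048192, minus strand) had 0 counts in all controls and 110, 73 and 234 with tyramine, 4.78 ± 3.02 CPM. Against the floor of 3 counts per library it rose at least 50.03-fold, a counting limit only (edgeR adjusted p = 0.0026). Without tyramine replicate 3 it rose at least 32.4-fold by the same limit. Ces1b, its neighbour, had 21, 0 and 9 counts in controls against 118, 235 and 159 with tyramine, 16.97-fold higher (log2 fold change 4.08 ± 1.25 SE, adjusted p = 0.037 by edgeR). Both genes passed the filter on low counts through the tyramine libraries, so these rises are description only. For Ces1b the fold was 36.1 without control replicate 1, and its call was lost without control replicate 1 or 3 or tyramine replicate 1 or 2 (adjusted p from 0.057 to 0.13).

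Ces1d stood at 2.44, 4.80 and 2.39 CPM in controls and 8.69, 7.64 and 8.42 with tyramine. The groups did not overlap, but the log2 fold change of 1.36 (SE 0.517) was not past the threshold by edgeR (adjusted p = 0.082), and DESeq2 gave 0.045. Ces1e averaged 2.39 ± 0.528 CPM in controls and 5.10 ± 2.17 with tyramine, with overlap (log2 fold change 1.09, edgeR adjusted p = 0.28). Ces1g had 0, 11 and 6 counts against 74, 17 and 8, and Ces1c had 1, 17 and 0 against 1, 0 and 0. Of the 50-base words of Ces1b, 9.92% also occur in Ces1c. Ces3a had 4 counts in control replicate 3 and 0 elsewhere, and Ces3b, Ces4a and Ces5a were at 0 in every library.

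**Figure D4:**
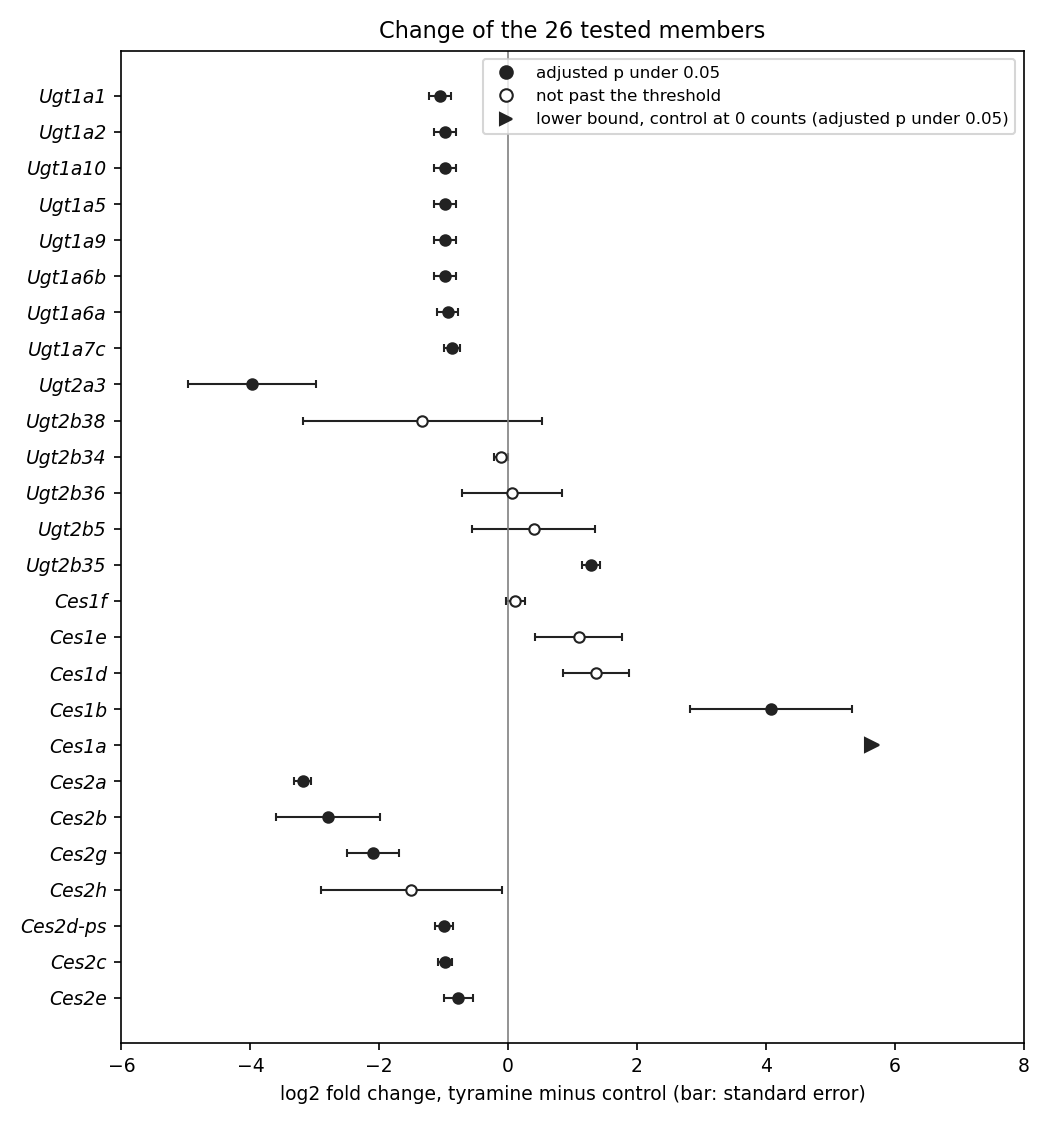
Log2 fold change (tyramine minus control) of the 26 tested members with its standard error as a bar, filled where the edgeR adjusted p is under 0.05, and a triangle at the lower bound for Ces1a, whose controls were at 0 counts. The Ugt1a rows lie close together from -0.87 to -1.06, the Ces2 genes from -0.77 to -3.19, the Ugt2 genes on both sides of 0, and the 5 tested Ces1 genes above 0, of which 3 were not past the threshold.

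Per length, as CPM per 1000 exon bases of GENCODE M21, the control order was Ces2c at 445 ± 20.6, Ces2a at 266 ± 31.4, Ces2d-ps at 238 ± 21.9 and Ugt2b34 at 151 ± 3.12. Ces2a and Ces2d-ps did not differ beyond their spread. Next came Ces2e at 58.1 ± 2.67, Ces1f at 32.1 ± 4.81, Ugt2a3 at 26.02 ± 2.95, Ces2g at 20.5 ± 0.334 and Ugt2b35 at 15.6 ± 0.905. Ces1f and Ugt2a3 did not differ beyond their spread. Ugt1a rows lay at 42.2 to 84.5 per 1000 bases, but hold shared reads.

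With tyramine the order of these levels per length was Ces2c at 226 ± 29.4, Ugt2b34 at 139.6 ± 18.0, Ces2d-ps at 119 ± 20.2, Ugt2b35 at 38.1 ± 4.06, Ces1f at 34.7 ± 2.70, Ces2e at 34.0 ± 13.04 and Ces2a at 29.2 ± 3.38. Ugt2b34 and Ces2d-ps did not differ beyond their spread, nor did Ugt2b35, Ces1f and Ces2e, or Ces1f, Ces2e and Ces2a. Of the other genes listed for controls, Ces2g was at 4.77 ± 3.35 and Ugt2a3 at 1.65 ± 1.57, also within their spread. Ugt2b5, not listed there, had a higher mean than Ces2g, at 7.90 ± 6.66. Ces1d, Ces1b, Ces1e and Ces1a, at 2.12 to 3.48, had higher means than Ugt2a3.

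Of 11 tested genes for the supply and removal of glucuronic acid, 2 rose, 1 fell and 8 missed the threshold (median log2 fold change -0.01), a share of calls near the 25.8% of all tested genes. Ugdh, which makes UDP-glucuronic acid, rose from 308, 310 and 266 CPM in controls to 692, 721 and 658 (log2 fold change 1.23, edgeR adjusted p = 1.5e-05). Its groups lay far apart, in the other direction from Ugt1a. Pgm2, a phosphoglucomutase, also rose (0.83, 0.00066). Gusb, the glucuronidase that reverses conjugation, fell from 25.4 ± 1.21 to 13.95 ± 2.56 CPM (-0.86, 0.034), a call lost without any 1 control library or tyramine replicate 3.

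Conjugates leave the cell through ABC transporters. Of 15 such genes and related carriers, 4 rose, 3 fell and 8 missed the threshold (median -0.15), where 25.8% of all tested genes were called. Abcc4 rose from 11.0 ± 2.74 to 147 ± 11.2 CPM, 13.4-fold (edgeR adjusted p = 1.8e-06). Abcc2, the apical exporter of glucuronides, rose from 1085 ± 48.6 to 2242 ± 293 CPM (6.5e-05), and Abcc1 rose 3.29-fold (4.4e-05). Abcg2, an apical exporter of sulfates and drugs, fell 4.24-fold (5e-05). The other called genes, named for completeness after their values were seen, were Abcc3, which rose, and Abcb1a and Slc51b, which fell.

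Sulfation is another main route of conjugation. Of 9 tested genes of sulfation and other conjugating reactions, 4 fell, 0 rose and 5 missed the threshold (median -1.36). Among all tested genes 13.3% fell and 12.5% rose. Sult1b1, a sulfotransferase for phenols and thyroid hormones, fell from 541 ± 91.2 to 35.2 ± 15.9 CPM, 15.4-fold (edgeR adjusted p = 7.1e-05). Sult1d1 (log2 fold change -1.56, adjusted p = 5.1e-06) and Papss2, which makes the sulfate donor (-1.23, 0.00063), also fell. Tpmt, a methyltransferase, fell (-1.88, 0.0099), but not without control replicate 3.

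Of 28 tested esterases and lipid hydrolases outside the Ces families, 11 fell, 3 rose and 14 missed the threshold (median -0.63). Without control replicate 2, 7 fell. The shares over all tested genes were 13.3% falling and 12.5% rising. Bche, butyrylcholinesterase, fell from 69.3 ± 16.1 to 7.86 ± 2.12 CPM, 8.82-fold (edgeR adjusted p = 4.3e-05), and Ephx2 (-1.54, 5.5e-05) and Cmbl (-2.91, 0.00057) also fell. Esd, an esterase that acts on S-formylglutathione, rose from 453 ± 39.9 to 2128 ± 121 CPM (2.23, 3.9e-07). The other members that rose, named after their values were seen, were Abhd5 and Acot7.

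Of 19 genes of triglyceride and lipoprotein assembly, in which intestinal lipid hydrolases also take part, 14 fell, 1 rose and 4 missed the threshold (median -1.79). For this list and the next, the shares over all tested genes were 13.3% falling and 12.5% rising. Mttp, which loads lipid onto apolipoprotein B, fell 5.09-fold from 1902 ± 72.7 CPM (edgeR adjusted p = 9.1e-07), and Apob (log2 fold change -2.05), Apoa4 (-1.79) and Apoa1 (-3.81) fell. Plin2, named after its value was seen, was the member that rose, and its call was lost without control replicate 1 or 3. Of 8 tested genes of heme and bilirubin, the pigment that UGT1A1 conjugates, 2 rose, 2 fell and 4 missed the threshold (median -0.15). Blvrb, a biliverdin reductase, rose from 7.47, 13.6 and 9.19 CPM to 171, 187 and 206, 18.6-fold (edgeR adjusted p = 1.6e-06). Hmox1, which opens heme to biliverdin, rose (log2 fold change 5.75, 2.2e-07). Cpox, an enzyme of heme synthesis, fell (-0.67, 0.0028), and Slc46a1, a folate and heme carrier, fell 4.66-fold (0.0098), or 8.27-fold without tyramine replicate 1.

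**Figure D5:**
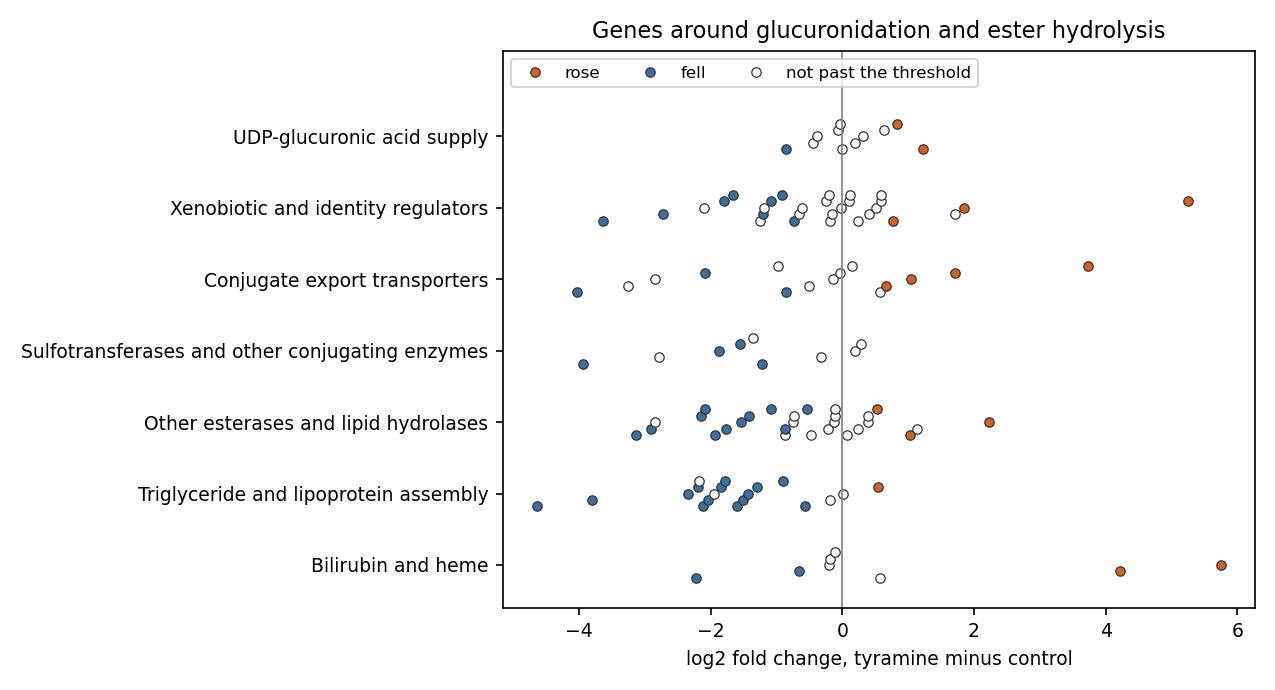
Log2 fold change (tyramine minus control) of each tested gene in 7 lists around glucuronidation and ester hydrolysis, each point a gene, orange where it rose, blue where it fell and white where it was not past the threshold. The lipid assembly list has 14 of 19 points blue, whereas the supply, regulator, export and heme lists hold called points on both sides of 0.

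Regulators known to act on Ugt and Ces genes fell in part. Of 29 tested nuclear receptors and gut or xenobiotic factors, 8 fell, 3 rose and 18 missed the threshold (median -0.20). Among all tested genes 13.3% fell and 12.5% rose. Hnf4g and Hnf4a, hepatocyte nuclear factors that are also gut regulators, fell from 220 ± 15.6 to 33.3 ± 12.3 CPM (edgeR adjusted p = 3.6e-05) and from 534 ± 34.5 to 231 ± 29.4 CPM (5.4e-05). Nr1i2, which encodes the xenobiotic receptor PXR, fell from 239, 227 and 265 CPM to 97.2, 86.2 and 48.5 (0.00053). Cdx2, an intestinal homeobox factor, fell 3.46-fold (0.0024). The members that rose, named after their values were seen, were Ahrr, Cebpb and Foxa1. Only 1 rose when any 1 control library or tyramine replicate 2 was left out. Cebpb was at 0.140 to 0.357 CPM in controls and passed the filter on low counts through the tyramine libraries.

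The promoters were searched for short motifs of factors such as these, and those of 4 Ces2 genes, all of which fell, are shown. A link between a motif and a fall was not tested. The windows below, from RefSeq on GRCm38.p6, run from 130 bases before the gene start to 20 bases from it, 5′ to 3′ on the gene's strand. The capitals mark CAAAGT, the core of the HNF4 motif, which is read here on the opposite strand as ACTTTG; Ces2c is shown beside them because its window holds none.
Ces2a (chr8:104733873-104734022, plus strand): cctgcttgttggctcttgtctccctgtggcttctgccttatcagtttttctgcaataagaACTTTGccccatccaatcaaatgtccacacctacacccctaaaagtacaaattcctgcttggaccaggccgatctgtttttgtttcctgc
Ces2e (chr8:104926130-104926279, plus strand): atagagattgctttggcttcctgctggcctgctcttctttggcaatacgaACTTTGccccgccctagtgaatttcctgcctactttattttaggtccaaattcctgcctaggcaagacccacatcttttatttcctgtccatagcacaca
Ces2g (chr8:104961588-104961737, plus strand): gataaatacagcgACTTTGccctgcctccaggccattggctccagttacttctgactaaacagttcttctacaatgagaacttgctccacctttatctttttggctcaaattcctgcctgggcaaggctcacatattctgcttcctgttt
Ces2c (chr8:104846938-104847087, plus strand): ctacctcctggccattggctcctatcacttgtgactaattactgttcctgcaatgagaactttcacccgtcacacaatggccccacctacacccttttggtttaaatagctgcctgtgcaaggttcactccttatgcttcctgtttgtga
The first base of the match lies 70 bases before the start in Ces2a, 80 in Ces2e and 117 in Ces2g.

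Over full windows of 300 bases and both strands, CAAAGT occurred in 14.4% of 32851 RefSeq promoters and in 5 of 33 member promoters, which stand for 32 of the 39 symbols. Of those, 4 were among the 6 Ces2 promoters (Ces2a, Ces2e, Ces2f and Ces2g). The longer form CAAAGTCCA contains the short form, and it occurred in 0.475% of all promoters and in 0 of the 33. TGANNNNGC, the core of the motif through which NRF2 acts, occurred in 41.3% of all promoters and in 10 of the 33, and TGANTCA, the AP-1 motif, in 7.81% and in 6, of which 5 were Ugt2 promoters. TTTATG, a CDX motif, occurred in 11.9% and in 7, of which 5 were among the 6 Ces1 promoters (Ces1b with 2 promoters, Ces1c, Ces1e and Ces1g). GCGTG, the core of the aryl hydrocarbon receptor motif, occurred in 32.4% and in 2. The genes of a cluster are copies of each other, so their matches are not independent, and a match is a string of letters and not a measured binding site.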

How the data were processed

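RNA was sequenced from 6 libraries. Per the labels' protocols, a stranded mRNA kit with random molecular identifiers was used and read on a DNBSEQ-T7, and the submitters' processing notes name STAR 2.5.3a and the build mm10. The authors deposited whole-number counts per gene symbol. The sources used here do not give the counter, annotation, strand setting or use of identifiers. Counts of 1 to 8 were even in 72.6% to 78.7% of cases per library, so a count need not be an independent molecule, and floors cover counting error only.

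Rows of the whole table were kept by filterByExpr at a minimum count of 10 and a minimum total of 15, scaled by TMM factors of 0.962 to 1.04 and tested by quasi-likelihood in edgeR 4.0.16 under R 4.3.3 (robust, with group as its only term), with Benjamini-Hochberg adjustment over 12139 genes and a threshold of 0.05. The SE is the log2 fold change over the square root of F. The script was tested on simulated counts, with 50 changed genes per fold before the filter on low counts. The shares below count only changed genes that the filter kept. The script called 4.26% of 1.5-fold, 34% of 2-fold, 64% of 4-fold and 66.7% of 8-fold changes in the right direction. There were 7 false calls among 11682 unchanged genes. A gene not past the threshold may therefore still have changed. Members and lists were chosen with earlier results of these data known; the Ugt1a excess, the motifs and the 50-base word comparison were added after values were seen. All members are named, and up to 4 called genes per pathway list, smallest p first, with further genes of these lists named only where the text says that their values were seen; a result on 1 further regulator is not reported here. Alternatives used DESeq2 1.42.0, limma-voom (limma 3.58.1), other scalings and filters, a replicate block and each library left out. Positions are from GENCODE M21 (GRCm38) by symbol.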

Additional observations from a re-analysis of the deposited data

How the results depend on the processing

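Over 14 alternatives of scaling, filter, tool, block and library left out, 2 to 4 members rose and 12 to 15 fell. With each library left out, 2 to 4 rose, 12 to 15 fell, and summed Ugt1a kept its call (log2 fold change -1.14 to -0.83). With 1 row each for Ugt1a and for Ugt2a1 with Ugt2a2, chosen after seeing the data, 8 fell, because 8 Ugt1a rows became 1. With each library left out, values turned sign for Ugt2b36 (-0.438 to 0.466), Ugt2b38 (-4.25 to 0.0845), Ces1f (-0.0080 to 0.199), Ugt2b5 (-0.0184 to 0.967), the Ugt1a6a excess (-0.38 to 0.15) and the Ugt1a6b excess (-1.09 to 0.0682). Ugt2b36 was also -0.0190 by library totals alone, and Ugt2b5 was -0.89 by limma-voom. Each was not past the threshold with all libraries, and the cause was not tested.

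The replicate numbers are shared by both groups. Deviations of same-numbered libraries correlated at -0.0281, -0.0148 and 0.000905, so no shared replicate effect was visible. These values cannot show whether same-numbered libraries came from the same culture or mouse, which the labels do not give. With the replicate block 2 members rose, 14 fell, Ugt2b5 was -0.43, summed Ugt1a was -0.98, and Ces1b and Ces2b were not past the threshold (adjusted p = 0.073 and 0.065). Calls over all genes were 1977 to 2075 without any 1 control, against 3127. Without the low-count filter 34 members were tested, of which 3 rose and 14 fell. The 5 members at 0 in every library allow no comparison.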
